A study of Mus musculus with 8 samples.

Results

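The Il31ra locus is a run of 558 bases on mouse chromosome 13 in which small RNA fragments, listed by the submitters under piRNA names, were found in sperm. Its members are the names whose kept row lay in a fixed window of chromosome 13 a few bases wider than that run, after each name of a table was kept once, at its first row by chromosome (as text) and start. This gave 115 members of 13450 names in the MC-LR table and 193 members of 17375 names in the shRNA table, or 206 of the 20210 names found in either. Both tables shared 102 members, which is 88.7% of the members in the MC-LR table and 52.8% of those in the shRNA table. The rule used position only, not any measured level.

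The study sequenced RNA from sperm of Balb/c mice at post natal month 8, in 8 libraries of 4 groups with 2 libraries each, lettered A and B. The groups were MC-LR exposure, set against a control, and an shRNA against Hsp90aa1, set against a negative-control shRNA. MC-LR doses are mentioned in the design text, but no label states one, nor the route of exposure or the vector and target cell of the shRNAs. Whether A and B came from separate animals is not stated either. The p-values therefore set a group difference against the variation between these particular libraries, and that variation may be technical.

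piRNAs are small RNAs of the germ line that bind PIWI proteins and guide them to matching transcripts, above all those of transposable elements. Many are cut from long single-stranded precursors, and a single sequence can match many copies of a repeat in the genome. MC-LR is microcystin-LR, a toxin of cyanobacteria that inhibits the protein phosphatases PP1 and PP2A, and Hsp90aa1 encodes HSP90 alpha, a cytosolic chaperone. Il31ra encodes a receptor subunit for the cytokine interleukin 31. A piRNA name stands for a fragment with a defined start and end, so overlapping names differ by a few bases at their ends and are not independent measurements.

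All members lay in an intron of Il31ra, on the minus strand as the gene does. In GENCODE M21 (GRCm38, mm10) the gene spans 112519898 to 112594360 of chromosome 13, and the members spanned 112578175 to 112578732. The intron has 14736 bases, the members began 1905 bases from the exon on their 5′ side and ended 12273 bases from the exon on their 3′ side, and none overlapped an exon. No other kept name lay within 458816 bases of them in the shRNA table or 5456428 bases in the MC-LR table. They stood in 3 stretches, here named in the 5′ to 3′ direction of the minus strand. The upstream stretch (112578691 to 112578732) held 108 of the 206 names, the middle stretch (112578220 to 112578256) held 10, and the downstream stretch (112578175 to 112578214) held 88. A gap of 434 bases without any member separated the upstream from the middle stretch.

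These fragments were not unique to Il31ra. All 115 members in the MC-LR table, and 177 of 193 in the shRNA table, were listed at more than 1 place in the genome, most often at 5 (57 and 107 members). Every member had the same values at each of its places, so its reads were counted at all of them and cannot be assigned to Il31ra. Another 39 names in the MC-LR table and 33 in the shRNA table matched the locus too but were kept at a place on another chromosome by the rule. The members recurred at 7 other places, of which 3 lay in a gene body and 0 overlapped an exon. On chromosome 2, at 5379040 to 5379313 inside Camk1d, which encodes a calcium/calmodulin-dependent kinase, 108 upstream and 48 downstream names recurred in the same order, with 276 fewer bases between the stretches. A place at 5860357 to 5860634 on the plus strand of chromosome 3 held 108 upstream and 72 downstream names. A place on chromosome X, at 116287331 to 116287368, held 104 upstream names and no others. The 10 middle names recurred at 56694014 to 56694050 on chromosome 14, inside Mphosph8 but on its opposite strand, and 3 of them in Tmem56 on chromosome 3. Only 16 members, all downstream ones of the shRNA table between 112578175 and 112578208, were listed at chromosome 13 alone.

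The sequences of the members themselves were not analysed here. The microRNA gene Mir6240 lies beside one of the copies, on the plus strand of chromosome 5 at 114851948 to 114852064 (RefSeq, GRCm38.p6). The chromosome 5 copy of the downstream stretch, with 21 names at 114852125 to 114852150, began 60 bases past that hairpin on the opposite strand. The hairpin of 117 bases is shown because 15 of the 24 names listed on it recurred in the chromosome 2 copy, where they reached 9 bases into the upstream stretch. No member was listed on the hairpin, so the letters are shown as those of the neighbouring repeat sequence. Whether some of them also occur in members, through the 9 shared bases, was not tested. Capitals mark the mature microRNA, the 26 bases from 114851973 to 114851998.
Mir6240 hairpin: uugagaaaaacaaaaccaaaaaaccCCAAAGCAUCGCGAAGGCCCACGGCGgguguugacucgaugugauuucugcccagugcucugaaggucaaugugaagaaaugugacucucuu

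Levels are given in RPM, the reads of a name divided by the library total and put on one scale, and each RPM value was a whole number of reads. The totals behind the scale were 5941139 to 6560723 reads in the MC-LR libraries, 4960467 and 14634370 in the control libraries, 10832261 and 13360928 with the Hsp90aa1 shRNA, and 9710383 and 13380630 with the negative-control shRNA. The median member rested on 20 and 23 reads in MC-LR libraries A and B, and on 124 and 31 in control A and B. It rested on 23 and 11 reads with the Hsp90aa1 shRNA, and on 70 and 77 with the negative-control shRNA. In at least 1 library, 11 members under MC-LR or in control, and 28 in the shRNA table, had fewer than 3 reads, but none was at 0. All listed names together made up 12.5% and 11.7% of the MC-LR totals and 38.1% and 35.2% of the control totals. They made up 4.88% and 3.16% of the Hsp90aa1 shRNA totals and 27.7% and 32.3% of the negative-control shRNA totals. Whether overlapping names share reads was not tested, so such sums may count a read more than once. The part of the lower listed share in the results on the locus was not tested. Sperm and germ cells carry microRNAs of the miR-34 and miR-449 families, and of those 5 genes 3 had a listed name in the shRNA table, summing to 634 and 163 RPM with the Hsp90aa1 shRNA and to 1327 and 2641 RPM with the negative-control shRNA. None of the 5 had one in the MC-LR table. Names on all 5 genes of the miR-200 family, which marks epithelium, summed to 2408 and 2490 RPM under MC-LR and to 6388 and 4690 RPM in control. They summed to 399 and 110 RPM with the Hsp90aa1 shRNA and to 2591 and 3801 RPM with the negative-control shRNA. Of the 4 stromal microRNA genes 1 had names, summing to 80.3 and 138 RPM under MC-LR and 380 and 244 RPM in control, and to 32.9 and 7.57 RPM with the Hsp90aa1 shRNA and 119 and 221 RPM with the negative-control shRNA. Of the 4 blood genes 2 had names, summing to 2.19 and 3.96 RPM under MC-LR and 5.53 and 8.87 RPM in control. These blood names summed to 43.7 and 56.2 RPM with the Hsp90aa1 shRNA and 272 and 405 RPM with the negative-control shRNA. The liver microRNA had none. In sperm RNA in bulk, fewer cells of a type and less RNA per cell cannot be told apart. The part of these markers in the results was not tested.

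The first comparison asked how the fragments of the locus differ after MC-LR exposure. Summed over the 115 members, the locus stood at 497 and 487 RPM in MC-LR libraries A and B, against 1201 and 894 RPM in control A and B. Both MC-LR libraries were below both control libraries, and the control libraries differed more from each other than the MC-LR libraries did. The means were 492 ± 6.55 RPM under MC-LR and 1048 ± 217 RPM in control (SD, n = 2 each), which is 2.13-fold lower, or -1.09 on the log2 scale. With 2 libraries a group, an exact permutation p cannot go below 0.33, so no test of the sum is given.

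All 3 stretches were lower by their sums, by similar folds. The upstream stretch, the most abundant one, had 297 and 268 RPM under MC-LR against 608 and 518 RPM in control, 1.99-fold lower. The middle stretch had 16.3 and 17.5 RPM under MC-LR against 32.5 and 33.9 RPM in control, 1.96-fold lower. The downstream stretch had 183 and 202 RPM under MC-LR against 561 and 343 RPM in control, 2.35-fold lower. No stretch had overlapping groups. Control A lay above control B chiefly in the downstream stretch, and the ratio of upstream to downstream sums was 1.63 and 1.33 under MC-LR and 1.09 and 1.51 in control, so that the groups overlapped in that ratio.

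**Figure D1:**
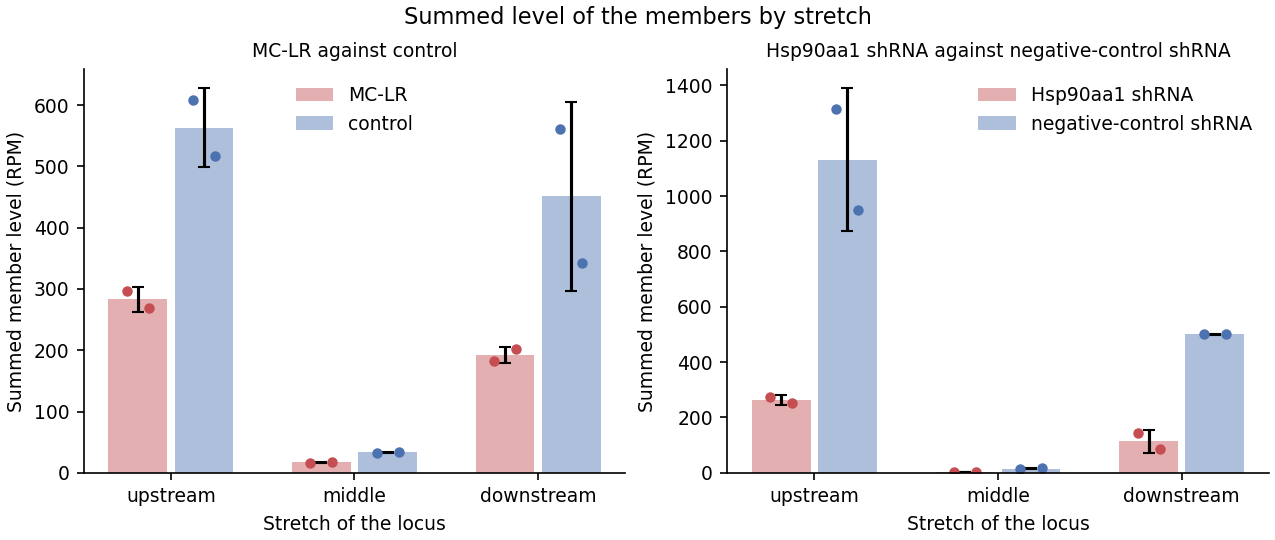
Summed RPM of the members in each stretch, for MC-LR and control (left) and for Hsp90aa1 shRNA and negative-control shRNA (right); bars are means, error bars the SD and points the 2 libraries of a group. In each stretch both libraries of the left-hand group lie below both libraries of the group beside it, and the middle stretch is the lowest.

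Member by member, limma on log2(RPM + 1) with Benjamini-Hochberg adjustment over all 13271 names tested called 57 members lower and 0 higher of the 113 that passed the filter on low values, at an adjusted p below 0.05. At an unadjusted p below 0.05, 66 were lower and 0 higher. Over the whole table the same test called 73.1% of names lower and 2.37% higher, so the share of members called lower, 50.4%, was under the background. The median log2 fold change of the tested members was -0.89, against -1.17 over all names tested. All 113 tested members had a negative log2 fold change. By stretch, 20 of 52 upstream, 1 of 4 middle and 36 of 57 downstream members tested were called lower. The medians of the tested members were -0.83, -0.79 and -0.98. The MC-LR libraries were both below the control libraries for 102 of the 115 members, where the whole table had 92.6%. All 13 others overlapped through control B alone. How names were chosen for listing is not stated in the sources used here, so a table may hold mainly names that differed, and its direction cannot be taken as independent support. The count of lower members turned on single libraries, falling when either MC-LR library was left out and rising without control B. The count over all names moved the same way. Member medians were -0.89 with MC-LR A left out, -0.91 with MC-LR B left out, -0.72 without control A and -1.14 without control B. Over all names the medians in those fits were -1.19, -1.20, -1.20 and -1.24. Scaling within the list ended every call of a member. In either direction, 0 members were called with edgeR's TMM factors, DESeq2 or each library set to the same median. DESeq2 left 18 members without an adjusted p. Over all 13271 names, these scalings called 291, 399 and 654 lower and 315, 317 and 314 higher. At an unadjusted p below 0.05, 15, 2 and 1 members were higher and 0 lower. The unadjusted share over all names was not taken. The member median then lay at 0.57, 0.55 and 0.39, against 0.06, 0.04 and 0.11 over all names.

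The member with the highest mean level, piR-mmu-20140858 (112578701 to 112578725, upstream, 25 nt), had 20.2 and 12.96 RPM under MC-LR and 38.7 and 30.0 RPM in control. Both MC-LR libraries lay below both controls, and the log2 fold change was -1.03 ± 0.37 (SE; limma adjusted p = 0.0282). The call was lost without MC-LR A (limma adjusted p = 0.0669) and without MC-LR B (0.265). The next in abundance, piR-mmu-49005145 (112578192 to 112578212, downstream, 21 nt), had 13.3 and 13.4 RPM under MC-LR and 40.5 and 18.1 RPM in control. It did not pass (log2 fold change -0.97 ± 0.41 SE, limma adjusted p = 0.0519), but passed without control B (9.90e-05). Nor did piR-mmu-56077136 (112578698 to 112578723, upstream, 26 nt), with 14.5 and 14.6 RPM under MC-LR and 31.4 and 20.8 RPM in control (log2 fold change -0.77, limma adjusted p = 0.0668, and 0.0064 without control B). In all 3 members control A was the highest library, and in the last 2 the MC-LR libraries were nearly level with each other.

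With limma's pseudocount of 1 RPM, which shrinks the changes of low members, the lowest log2 fold change was that of piR-mmu-15317997 (112578190 to 112578213, downstream, 24 nt). It had 2.52 and 1.07 RPM under MC-LR and 10.7 and 6.05 RPM in control. Its log2 fold change was -1.75 ± 0.41 (SE; limma adjusted p = 0.00462), with the call lost without MC-LR B (0.0521). Its neighbour piR-mmu-30204997 (112578185 to 112578210, 26 nt) had 0.337 and 0.915 RPM, or 2 and 6 reads, under MC-LR and 4.65 and 3.63 RPM, or 68 and 18 reads, in control. It fell by 1.68 ± 0.35 on the log2(RPM + 1) scale (SE; limma adjusted p = 0.00272) and kept its call without each library. The plain log2 ratio of group means gave these members the other order, at -2.22 for piR-mmu-15317997 and -2.73 for piR-mmu-30204997. Both were rare members: the groups did not overlap, but few reads lay behind the MC-LR values.

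On the same log2(RPM + 1) scale, 2 short upstream members had the log2 fold changes nearest to 0, and in both the groups overlapped through control B. piR-mmu-49539124 (112578703 to 112578723, 21 nt) had 1.68 and 3.35 RPM under MC-LR and 7.11 and 1.41 RPM in control, with a log2 fold change of -0.37 ± 0.53 (SE; limma adjusted p = 0.502). Without control A its log2 fold change was 0.50, and without control B it passed as lower (limma adjusted p = 0.00303). piR-mmu-48817730 (112578714 to 112578731), one of the shortest of the table at 18 nt, had 0.505 and 1.22 RPM under MC-LR and 3.01 and 0.403 RPM in control (log2 fold change -0.38, limma adjusted p = 0.437, and 0.00498 without control B). By the plain log2 ratio of group means they stood at -0.76 and -0.98, where the members ran from -2.73 to -0.69. A member reaching farthest 5′, piR-mmu-10154919, had 3.20 and 2.44 RPM under MC-LR and 7.38 and 3.83 RPM in control (limma adjusted p = 0.0894, and 0.00605 without control B). One of the longest members, piR-mmu-51728905 with 33 nt, was the one of these with control B as its highest library: it had 3.37 and 2.74 RPM under MC-LR and 4.10 and 10.1 RPM in control (limma adjusted p = 0.0689, and 3.87e-04 without control A).

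**Figure D2:**
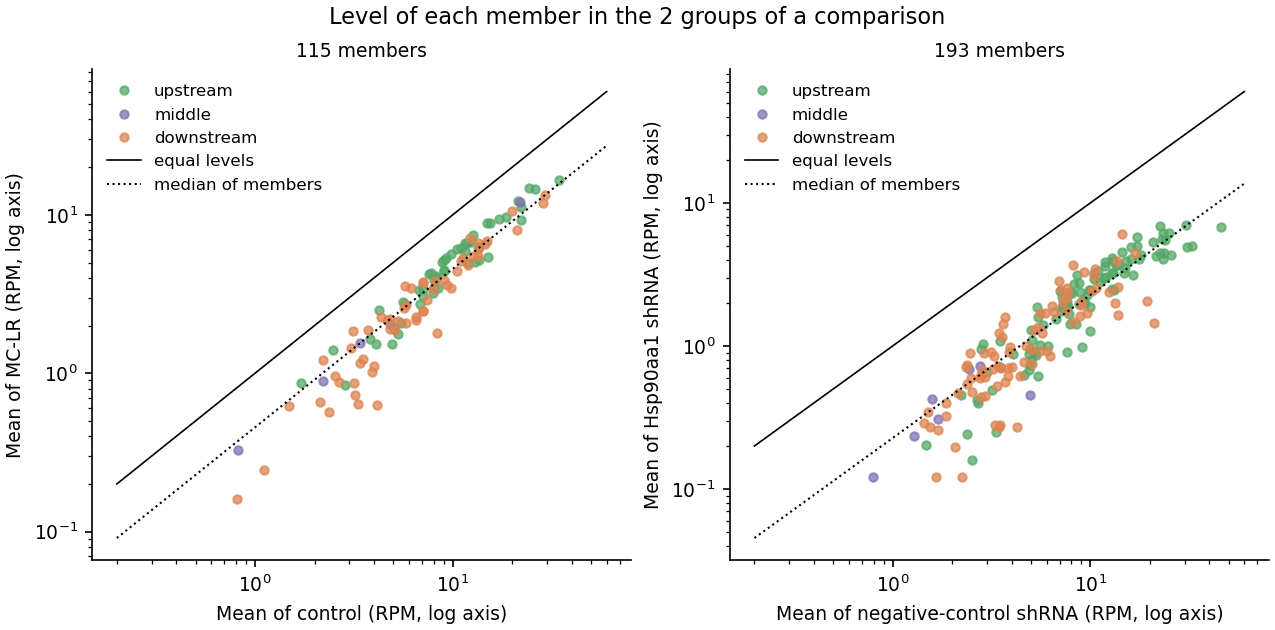
Mean RPM of each member in MC-LR against control (left, 115 members) and in Hsp90aa1 shRNA against negative-control shRNA (right, 193 members), on log axes, coloured by stretch. Points under the solid line are lower in MC-LR or with the Hsp90aa1 shRNA; all members lie under it, and the dotted line marks the median log2 ratio of group means, -1.13 on the left and -2.14 on the right.

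The second comparison asked how the same fragments differ with the shRNA against Hsp90aa1. The locus sum over the 193 members was 421 and 339 RPM in Hsp90aa1 shRNA libraries A and B, against 1831 and 1467 RPM in negative-control shRNA A and B. The groups were far apart relative to the spread within them: the means were 380 ± 58.2 RPM with the Hsp90aa1 shRNA and 1649 ± 257 RPM with the negative control (SD, n = 2 each), 4.34-fold lower, or -2.12 on the log2 scale. The level of the Hsp90aa1 messenger itself was not analysed here. The tables were normalized separately and share no library, so the fold is not tested against that of MC-LR.

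Again the 3 stretches were lower by similar folds, and the upstream one held most of the reads. It had 275 and 251 RPM with the Hsp90aa1 shRNA against 1314 and 951 RPM with the negative-control shRNA, 4.31-fold lower. The middle stretch had 3.52 and 2.40 RPM with the Hsp90aa1 shRNA against 15.1 and 15.9 RPM with the negative-control shRNA, 5.25-fold lower. The downstream stretch had 143 and 85.2 RPM with the Hsp90aa1 shRNA against 502 and 500.3 RPM with the negative-control shRNA, 4.39-fold lower. Groups did not overlap in any stretch. The ratio of upstream to downstream sums was 1.92 and 2.95 with the Hsp90aa1 shRNA and 2.62 and 1.90 with the negative-control shRNA, so it varied within each group as much as between them.

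The 16 downstream members listed at chromosome 13 alone were lower too. Their sum was 37.0 and 22.9 RPM with the Hsp90aa1 shRNA and 92.0 and 102 RPM with the negative-control shRNA, 3.24-fold lower, or -1.70 on the log2 scale. The 69 downstream members listed at more places had 106 and 62.3 RPM with the Hsp90aa1 shRNA and 410 and 398 RPM with the negative-control shRNA, 4.80-fold lower. Both sets had groups that did not overlap, as for 99.8% of all names of the table. The median log2 ratio of group means was -1.81 over the 16 and -2.23 over the 69, against -2.86 over all names. The 16 single-place members reach 1 to 6 bases beyond the 3′ edge of the other downstream members.

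**Figure D3:**
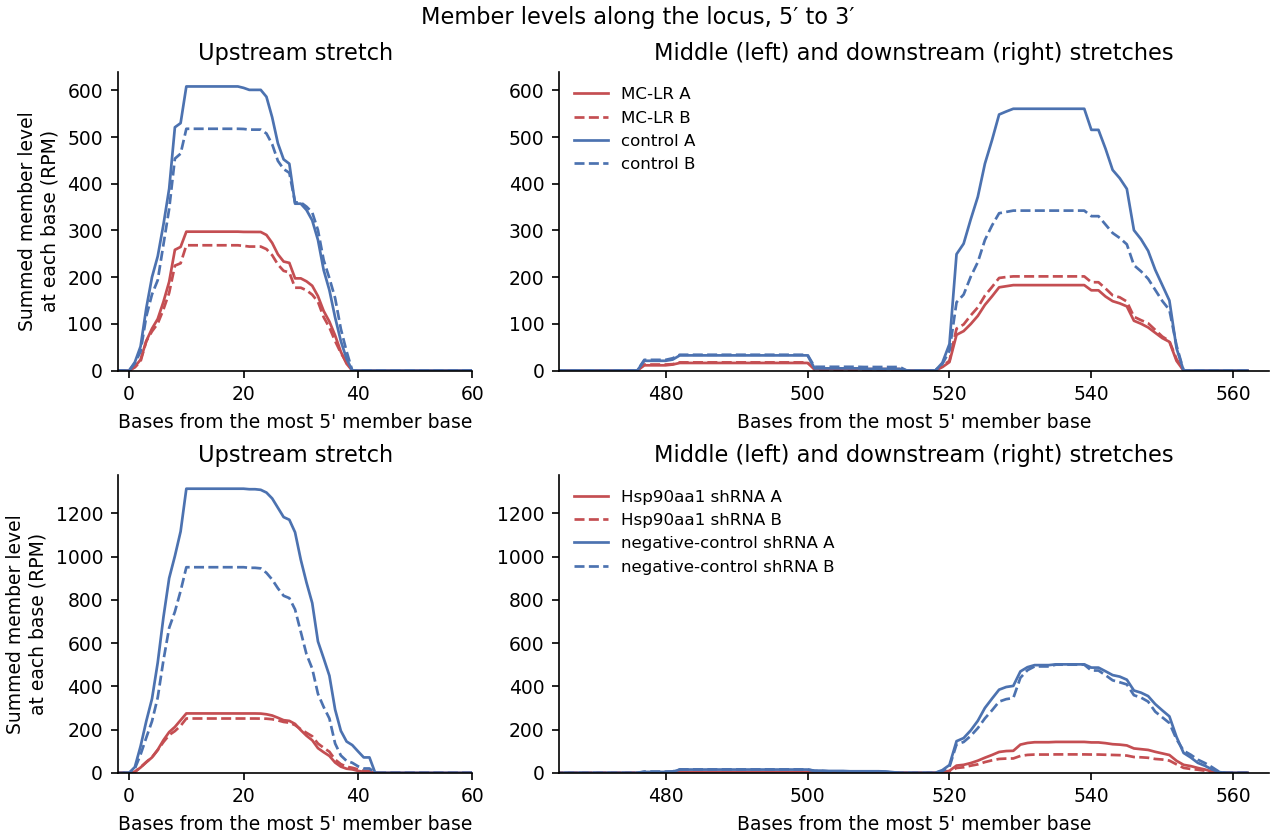
Summed RPM of the members covering each base, by distance from the most 5′ member base, for each MC-LR and control library (top) and each Hsp90aa1 shRNA and negative-control shRNA library (bottom). Each library shows the same 3 stretches at different heights: the upstream plateau reached 297 and 268 RPM under MC-LR and 608 and 518 RPM in control, and 275 and 251 RPM with the Hsp90aa1 shRNA and 1314 and 951 RPM with the negative-control shRNA.

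limma called 192 members lower and 0 higher of the 192 that passed the filter, of 16857 names tested, and the same counts had an unadjusted p below 0.05. This was the rule for the table, since 99.5% of all names were called lower and 0.219% higher. The tested members had a median log2 fold change of -1.52, against -1.66 over all names. All 101 upstream, 6 middle and 85 downstream members tested fell, with medians of -1.63, -1.04 and -1.41. For all 193 members both Hsp90aa1 shRNA libraries were below both negative-control libraries, as for 99.8% of the whole table. Among the fits that left out 1 library, the member median was smallest in size without negative-control shRNA A, at -1.39 against -1.63 over all names. As under MC-LR, 0 members were called in either direction after scaling within the list, with TMM factors, DESeq2 (104 members without an adjusted p) or equal medians. Over all 16857 names, these scalings called 15, 133 and 67 lower and 37, 34 and 37 higher. At an unadjusted p below 0.05, 20, 20 and 27 members were then higher and 0, 0 and 1 lower. The unadjusted share over all names was not taken here either. The member median lay at 0.69, 0.79 and 0.32 under these scalings, against -0.03, 0.03 and 0.17 over all names.

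The member with the highest mean level of the table, piR-mmu-3566132 (112578691 to 112578723, upstream, 33 nt), had 4.34 and 9.32 RPM with the Hsp90aa1 shRNA and 71.3 and 20.1 RPM with the negative-control shRNA. Its log2 fold change was -2.39 ± 0.68 (SE; limma adjusted p = 0.00706). Negative-control shRNA A stood far above B here, and without A the call was lost (limma adjusted p = 0.122). piR-mmu-10933435 (112578698 to 112578727, upstream, 30 nt) had 6.44 and 7.66 RPM with the Hsp90aa1 shRNA and 35.1 and 25.9 RPM with the negative-control shRNA. It fell by 1.96 ± 0.51 on the log2 scale (SE; limma adjusted p = 0.00453, and 0.0896 without negative-control shRNA A). piR-mmu-4552850, of 25 nt and with the same 5′ end, had 6.74 and 3.32 RPM with the Hsp90aa1 shRNA and 30.8 and 34.2 RPM with the negative-control shRNA and fell by 2.53 ± 0.52 (SE; limma adjusted p = 0.00156), a call kept without each library. So of these members the longer ones had A as the higher negative-control library and B as the higher Hsp90aa1 shRNA library, and the 25 nt one had the reverse.

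On the log2(RPM + 1) scale the lowest log2 fold changes were those of 2 short downstream members that share the 5′ end at 112578212. piR-mmu-37936201 (19 nt) had 2.32 and 0.554 RPM with the Hsp90aa1 shRNA and 14.9 and 27.1 RPM with the negative-control shRNA, with a log2 fold change of -3.22 ± 0.52 (SE; limma adjusted p = 7.06e-04). piR-mmu-49005145 (21 nt) had 3.37 and 0.739 RPM with the Hsp90aa1 shRNA and 16.99 and 21.7 RPM with the negative-control shRNA, and fell by 2.88 ± 0.52 (SE; limma adjusted p = 0.0010). Both kept their calls without each library. By the plain log2 ratio of group means they stood at -3.87 and -3.24, and rarer members lay lower, down to -4.21, among them piR-mmu-49096320 (18 nt, upstream) at -4.00. The same piR-mmu-37936201 had 11.1 and 12.5 RPM under MC-LR and 45.2 and 11.9 RPM in control, groups that overlapped, and did not pass there (log2 fold change -0.93, limma adjusted p = 0.114, and 2.62e-06 without control B).

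The log2 fold changes nearest to 0 on the log2(RPM + 1) scale were those of piR-mmu-58601380 and piR-mmu-51151110, whose plain log2 ratios of group means were -1.22 and -1.88, where the highest member stood at -1.15. piR-mmu-58601380 (112578178 to 112578207, 30 nt), listed at chromosome 13 alone, had 1.42 and 1.75 RPM with the Hsp90aa1 shRNA and 4.02 and 3.36 RPM with the negative-control shRNA (log2 fold change -0.86 ± 0.34 SE, limma adjusted p = 0.0327). Without any 1 library it did not pass, at limma adjusted p values of 0.0807 to 0.166. piR-mmu-51151110 (112578231 to 112578251, middle, 21 nt) had 0.674 and 0.185 RPM with the Hsp90aa1 shRNA and 1.44 and 1.72 RPM with the negative-control shRNA (log2 fold change -0.87, limma adjusted p = 0.00832, and 0.167 without Hsp90aa1 shRNA B). The groups did not overlap for either, but the Hsp90aa1 shRNA B value of the second rested on 2 reads.

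Fragment length, which the rule did not use, ran from 18 to 33 nt in both tables, with medians of 25 nt in the MC-LR table and 26 nt in the shRNA table. Mature piRNAs are mostly at the long end of that range. In the shRNA table the shorter members were lower by more: the sum of members of 18 to 22 nt was 55.4 and 14.5 RPM with the Hsp90aa1 shRNA and 204 and 301 RPM with the negative-control shRNA, 7.23-fold lower. Members of 23 to 27 nt had 222 and 147 RPM with the Hsp90aa1 shRNA and 858 and 748 RPM with the negative-control shRNA, 4.36-fold lower. Members of 28 to 33 nt had 144 and 178 RPM with the Hsp90aa1 shRNA and 769 and 418 RPM with the negative-control shRNA, 3.69-fold lower. The median log2 ratios of group means over those length ranges were -2.74, -2.13 and -1.84 for members and -3.28, -2.85 and -2.62 for all names of the table. Across members Pearson's r between length and log2 ratio was 0.67 (n = 193), and 0.28 across all names, as a description, since these values share libraries and overlapping fragments.

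This relation came chiefly from one library. Against the negative-control mean, r was 0.80 in Hsp90aa1 shRNA B and 0.17 in A. Members of 18 to 22 nt made up 13.1% and 4.28% of the locus in Hsp90aa1 shRNA A and B, against 11.1% and 20.5% with the negative-control shRNA, so Hsp90aa1 shRNA A lay between the negative controls. Weighted by level, the mean member length was 26.2 and 27.7 nt with the Hsp90aa1 shRNA and 26.8 and 25.5 nt with the negative-control shRNA, and the groups overlapped.

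In the MC-LR table length made little difference. Members of 18 to 22, 23 to 27 and 28 to 33 nt were 2.23-fold, 2.15-fold and 2.04-fold lower by their sums, and r between length and log2 ratio was -0.05 (n = 115). The control libraries differed in length here: members of 18 to 22 nt made up 21.0% and 22.5% of the locus under MC-LR, between the 27.4% of control A and the 16.5% of control B.

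**Figure D4:**
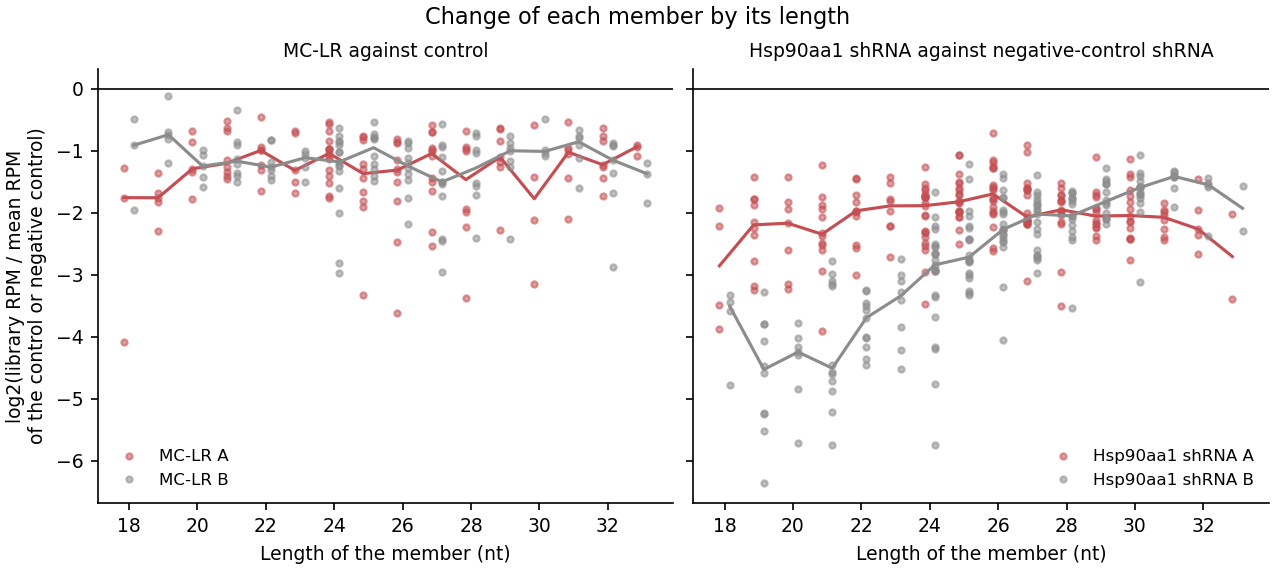
Log2 ratio of each library's RPM to the mean RPM of the control (left, MC-LR libraries) or of the negative-control shRNA (right, Hsp90aa1 shRNA libraries) for each member, by fragment length in nt; lines join the medians per length. Hsp90aa1 shRNA B falls off toward short fragments (r = 0.80), and Hsp90aa1 shRNA A (r = 0.17) and both MC-LR libraries show little slope.

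Because the locus is on the minus strand, the 5′ end of a member is its higher coordinate. In piRNA biogenesis the 5′ end is usually the more fixed one, while the 3′ end is trimmed. Downstream, 11 members in each table shared the 5′ end 112578212, the most used one in every library but Hsp90aa1 shRNA A. It held 31.9% and 34.2% of the downstream sum under MC-LR and 34.3% and 30.3% in control. In the shRNA table it held 16.9% and 18.8% with the Hsp90aa1 shRNA and 22.01% and 21.0% with the negative-control shRNA, and another end at 112578203, without a member in the MC-LR table, held 20.1% and 13.8% with the Hsp90aa1 shRNA and 13.3% and 18.8% with the negative-control shRNA. Upstream, the members began at each of 10 neighbouring bases, from 112578723 to 112578732, in both tables. The most used of them in the MC-LR table was 112578725, with 22.98% and 21.7% of the upstream sum under MC-LR and 21.6% and 20.8% in control. In the shRNA table it was 112578727, with 16.2% and 14.8% with the Hsp90aa1 shRNA and 16.0% and 18.1% with the negative-control shRNA. In the middle stretch of the MC-LR table a single member, piR-mmu-17804073 (112578233 to 112578256, 24 nt), held 69.1% and 73.9% of the sum under MC-LR and 64.5% and 67.9% in control. It had 11.3 and 12.96 RPM under MC-LR and 21.0 and 22.98 RPM in control, without overlap (log2 fold change -0.81 ± 0.34 SE, limma adjusted p = 0.0492). Its call was lost without MC-LR A (limma adjusted p = 0.280), MC-LR B (0.181) or control B (0.0521).

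Among the 102 members tested in both tables, each within its own table, limma called 55 lower under MC-LR and 102 lower with the Hsp90aa1 shRNA. Their median log2 fold changes were -0.92 and -1.53. Over all names tested, 73.1% and 99.5% were called lower, with medians of -1.17 and -1.66, so these counts do not set the locus apart. By the ratio of group means, the members of the MC-LR table had a median log2 ratio of -1.13, against -1.66 for all names of that table, and those of the shRNA table had -2.14, against -2.86. The 39 and 33 names that matched the locus but were kept elsewhere by the rule had medians of -1.20 (MC-LR) and -2.01 (Hsp90aa1 shRNA). Other names on the copy of this repeat on chromosome 18, which held 180 of the 206 members, had -1.35 over 93 names under MC-LR and -2.32 over 239 names with the Hsp90aa1 shRNA. Names on the 45S repeat copy of chromosome 17, with which the locus shared 0 names, had -1.64 over 5254 names under MC-LR and -3.07 over 6141 with the Hsp90aa1 shRNA. That copy was a single window, and whether the locus matches other parts of the 45S repeat was not tested. Relative to the list of names, the locus took a larger share in the treated libraries: it held 0.398% and 0.416% of the listed sum under MC-LR and 0.316% and 0.254% in control. It held 0.862% and 1.07% of it with the Hsp90aa1 shRNA and 0.661% and 0.455% with the negative-control shRNA. The groups did not overlap in that share in either table, and no test of it was made. The share was not taken for the names kept elsewhere or the other names on the chromosome 18 copy. Their medians, given above, also lay above those of all names in both tables, so a larger share is not shown to be particular to the locus.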

How the data were processed

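Groups and letters came from the sample titles. The authors deposited 2 tables, one per pair of groups, giving locus, strand, piRNA name and RPM in 4 libraries. Loci are on mm10, and the tools listed are HTSeq 0.6.0, HISAT2 2.1.0 and Bowtie2 2.2.3, per the submitters' processing notes. The role of each tool, the trimming and the total behind the RPM scale are not stated there. All deposited RPM values (100% within 0.01 of a whole number) were whole multiples of 1 read, which gave back reads and totals. In libraries A and B, 3 reads were worth 0.505 and 0.457 RPM under MC-LR, 0.205 and 0.605 RPM in control, 0.225 and 0.277 RPM with the Hsp90aa1 shRNA and 0.309 and 0.224 RPM with the negative-control shRNA. This floor covers counting error only.

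The test was limma 3.58.1 (trend, robust) in R 4.3.3 on log2(RPM + 1), which understates the change of low names, in each table alone, with a filter that asked for a group mean of 1 RPM or more in either group, at an adjusted p of 0.05. On recovered reads edgeR 4.0.16 (quasi-likelihood, library totals) put 10002 names lower and 314 names higher after MC-LR; with the Hsp90aa1 shRNA the counts were 16699 and 37. DESeq2 1.42.0 was a further alternative. Scripts were tested on simulated data. The deposited starts count from 0 and 1 was added for printing: 45 of 53 loci near plus-strand let-7 microRNAs then begin at the mature start, against 3 otherwise. Of 142 names inside several microRNA hairpins, 124 had the same sequence in all, so a listed place need not match exactly.

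Named members are, in each table, the 6 most abundant, the 4 with the lowest and the 4 with the highest log2 fold change, those at either edge, the shortest and the longest; the most telling are printed. Members and lists were chosen with earlier results of these data known. Python 3.11.15, pandas 2.3.3, numpy 2.4.6 and matplotlib 3.10.9 read tables and drew figures.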

Additional observations from a re-analysis of the deposited data

How the results depend on the processing

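Per library total, members were lower under each of the other pseudocounts and filters tried, and 0 were called higher by any tool or setting. The main count of lower members was 57 under MC-LR and 192 with the Hsp90aa1 shRNA. Under MC-LR it was 41 with a pseudocount of 5 RPM and 64 with edgeR on library totals; leaving out 1 library gave 9 to 93. With the Hsp90aa1 shRNA a filter of 5 RPM left 120 members, all lower, where 8135 of 8187 names were lower. There edgeR on library totals gave 189 of 192 members and 16699 of 16857 names. Leaving out 1 library gave member medians of -1.39 to -1.67 with this shRNA, against -1.57 to -1.75 over all names. Scaling by medians, TMM factors or DESeq2 gave 0 lower members in both tables. By construction these scalings set the bulk of the listed names to no change. The log2 ratio of the locus sums (-1.09 and -2.12) became 0.53 under MC-LR and 0.89 with the Hsp90aa1 shRNA after median scaling. Over members at a single place it was -1.70 with the Hsp90aa1 shRNA, and the MC-LR table had no such member. Members removed by a filter, which included rare named ones, gave no value under it.

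Single members also reversed with scaling, here by medians, TMM factors and DESeq2 in that order. Under MC-LR these were piR-mmu-20140858 (0.25, 0.66, 0.64), piR-mmu-49005145 (0.31, 0.58, 0.56), piR-mmu-56077136 (0.51, 0.87, 0.85), piR-mmu-49539124 (0.91, 0.88, 0.90) and piR-mmu-48817730 (0.91, 0.58, 0.65). With the Hsp90aa1 shRNA they were piR-mmu-58601380 (0.98, 1.66, 1.75) and piR-mmu-51151110 (0.96, 0.95, 0.97). By TMM factors and DESeq2 alone they were piR-mmu-3566132 (0.23, 0.34), piR-mmu-10933435 (0.78, 0.87) and piR-mmu-4552850 (0.11, 0.16). A tally covered, in each table, the 3 most abundant named members and the 2 lowest and 2 highest by log2 fold change. These made 14 entries, as piR-mmu-49005145 counted in both tables. Over them, 133 alternative values kept direction and call, 28 lost the call, 8 gained it and 28 reversed. Leaving out 1 library moved piR-mmu-49539124 between -1.25 and 0.50.

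With the replicate letter as a block (replicate block), 54 of 113 members were lower under MC-LR and 173 of 192 with the Hsp90aa1 shRNA. Over all names, 9541 of 13271 and 16251 of 16857 were lower. The letters are not stated to pair libraries, and same-letter deviations correlated at 0.06 and -0.60. A crossed replicate block, added after the data were seen, called 192 members and 16819 of 16857 names lower with the Hsp90aa1 shRNA. Depth limits the rare members: 11 and 28 of them had fewer than 3 reads in some library.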
